A study of Mus musculus with 6 samples.

Results

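The aminoacyl-tRNA synthetases were followed in RNA of cells from mouse bronchoalveolar lavage fluid, which is saline washed through the airways. They were the 37 rows, of 22800 gene symbols in the expression table, whose symbol is an amino acid letter followed by ars, with or without a final 1 or 2, or is Eprs, Farsa or Farsb. The rule reads names alone, but it was chosen with earlier results of these data known. By the same rule, the 17 symbols that end in 2 were taken as the mitochondrial enzymes and the other 20 as the cytoplasmic enzymes. Libraries came from mice given 20 µg of sulfatide by injection into the peritoneal cavity (n = 3, numbered 1, 2 and 3) and from mice that received vehicle (n = 3, numbered 2, 3 and 4). Sulfatide is a sulfated glycolipid that activates type II natural killer T cells, and the title of the series places the work in lung ischemia and reperfusion injury. The labels say neither whether these mice had undergone that injury nor their strain and age, and they do not say whether each library came from a separate animal. The p-values therefore reflect the spread among these samples alone, and that spread may be technical.

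Each synthetase joins 1 amino acid to the transfer RNAs that carry it to the ribosome. Cytoplasmic and mitochondrial ribosomes use separate sets of charged transfer RNA, and for most amino acids a separate nuclear gene encodes the enzyme of each compartment. Gars and Kars encode the enzymes of both compartments and were counted as cytoplasmic. Glutamine has no mitochondrial synthetase in mammals, since mitochondria charge its transfer RNA with glutamate first and then amidate it. Eprs joins the glutamate and the proline enzyme in 1 protein, and Farsa and Farsb encode the 2 subunits of the phenylalanine enzyme. Several cytoplasmic enzymes are held in a multisynthetase complex, and the genes of many are known targets of Atf4, the transcription factor of the amino acid response.

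Values were FPKM, which divide a gene's fragments by its length and by the library total, so that levels can be compared between genes. They summed to 1217971 to 1249691 in the sulfatide libraries and to 1126779 to 1168474 in the vehicle libraries, and 10254 to 10350 genes reached 1 FPKM in a library. Depth relative to vehicle replicate 2, estimated from low values, was 0.85 to 1.2, and the absolute depth is unknown. The macrophage genes Adgre1, Cd68, Lyz2, Csf1r and Mertk were present in each library, at a summed 26680 to 37800 FPKM in sulfatide and 28950 to 33570 FPKM in vehicle libraries. Of 7 alveolar macrophage genes 3 were tested and none was called, while Fabp1 and Krt79 were listed at 0 throughout. The 7 summed to 84.21 to 229.7 FPKM in sulfatide and 102.5 to 136.1 FPKM in vehicle libraries. The highest single value was 182.65 FPKM (Marco, sulfatide replicate 2). Of 6 neutrophil genes 2 were tested and 1 (S100a8) rose, while Ly6g stayed at or below 0.18 FPKM. The 6 summed to 372 to 507 FPKM in sulfatide and 110 to 145 FPKM in vehicle. S100a8 alone was at 361 to 471 FPKM in sulfatide and 91.65 to 114 FPKM in vehicle. Of 7 T, NKT and NK cell genes none exceeded 0.2 FPKM. Of 6 genes of cycling cells, all tested, 4 rose, with sums of 322 to 595 FPKM in sulfatide and 133 to 294 FPKM in vehicle. Birc5 alone was at 208 to 386 FPKM in sulfatide and 76.8 to 176 FPKM in vehicle. Of 5 stroma and endothelium genes 3 were tested and 1 (Pdgfrb) fell, with sums over the 5 of 17.9 to 23.8 FPKM in sulfatide and 24.8 to 32.3 FPKM in vehicle. Over all genes tested 8.31% were called higher and 10.4% lower. The part of these marker shifts in the synthetase values was not tested.

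All 37 synthetases were detected in all 6 libraries and passed the filter for testing, which was 1 FPKM in at least 3 libraries. The 2 compartments did not overlap in level. The lowest value of any cytoplasmic member was 26.1 FPKM (Vars, sulfatide replicate 3), and the highest of any mitochondrial member was 19.2 FPKM (Hars2, vehicle replicate 3). Nars, the asparagine enzyme, had the highest level at 400, 418 and 383 FPKM in sulfatide replicates 1, 2 and 3 and 432, 453 and 411 FPKM in vehicle replicates 2, 3 and 4. The groups overlapped for Nars, and its mean over the 6 libraries exceeded that of 95.5% of tested genes. Below it came Gars (mean of all libraries 208 FPKM), Sars (207 FPKM) and Aars (180 FPKM), the enzymes for glycine, serine and alanine. Gars and Sars did not differ in level beyond their spread, with ranges of 188 to 225 FPKM and 180 to 231 FPKM. Vars and Iars, the valine and isoleucine enzymes, were the lowest cytoplasmic members, at means of 32.1 and 31.6 FPKM.

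Among the mitochondrial members, Hars2, the histidine enzyme, had the highest level, at 18.7, 16.3 and 17.1 FPKM in the sulfatide libraries and 17.4, 19.2 and 16.02 FPKM in the vehicle libraries. Its neighbours in the order, Rars2 (mean 17.1 FPKM) and Iars2 (15.4 FPKM), lay within that range in part. Hars2 shares 4.56% of its exonic length with Hars (mean 75.0 FPKM) on the opposite strand. Whether counting used the strand is unknown, so its first place is uncertain. Wars2 and Mars2, the tryptophan and methionine enzymes, were the lowest at means of 1.84 and 2.10 FPKM. The median level was 73.4 FPKM over cytoplasmic members and 5.50 FPKM over mitochondrial members. Mitochondrial levels were under 5 FPKM for 8 of 17 members, where the log2(FPKM + 1) scale of the tests understates a change.

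**Figure D1:**
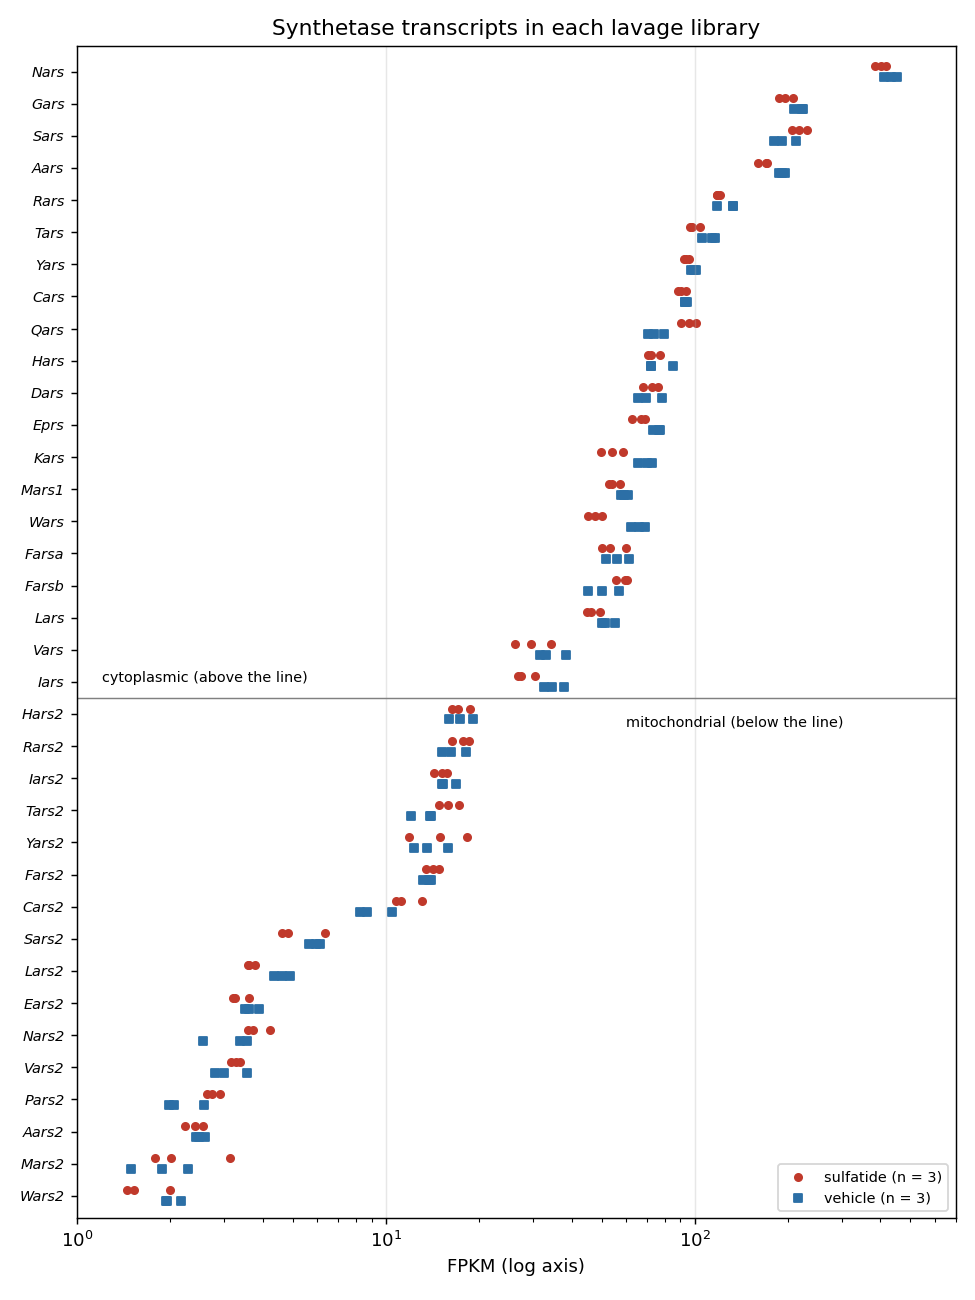
FPKM (log axis) of the synthetases named in the text in each library, with 3 sulfatide libraries (circles, upper row of a gene) and 3 vehicle libraries (squares, lower row). Every cytoplasmic value, from 26.1 FPKM up, lies to the right of every mitochondrial value, which reach 19.2 FPKM.

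The comparison of sulfatide with vehicle asks which synthetase transcripts differed in lavage cells after the lipid. Of the 37 members, 1 rose (Qars) and 2 fell (Wars and Kars) by limma at an adjusted p below 0.05, which is 8.11% of members. Over all 10405 genes tested 18.7% were called, 8.31% as higher and 10.4% as lower. No member differed by more than 1.38-fold between group means. In lavage cells measured in bulk, fewer cells of a type and less RNA per cell cannot be told apart. Of all called genes 44.5% were higher, and 23.4% when each library was rescaled to the same sum (TPM). With that rescaling 9 members were called lower and none higher, namely Wars, Kars, Iars, Aars, Eprs, Tars, Gars, Lars and Lars2, where 19.2% of all genes were called and 14.7% were lower. It moved the median log2 difference of all genes to -0.061, against 0.037 for FPKM as deposited.

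Wars, the cytoplasmic tryptophan enzyme and a gene that interferon gamma is known to induce, fell. It was at 50.1, 47.4 and 45.1 FPKM in sulfatide replicates 1, 2 and 3, against 62.1, 69.0 and 66.1 FPKM in vehicle replicates 2, 3 and 4. Every sulfatide library lay below every vehicle library. The means were 47.5 ± 2.53 FPKM in sulfatide and 65.7 ± 3.49 FPKM in vehicle (SD, n = 3 each), 1.38-fold lower. The log2 difference was -0.46 ± 0.087 (SE, limma adjusted p = 0.00705), with a 95% interval of -0.66 to -0.26. It remained called when any 1 library was left out, with limma adjusted p from 0.0133 to 0.0404. Its gene (ENSMUSG00000021266.16, chr12:108860030-108894174, minus strand, GRCm38) shares no exonic base with another annotated gene. Beside it, 16 of 18 tested genes of a list of interferon gamma induced genes fell and 1 (Cxcl9) rose. That is 94.4% called, against 18.7% of all genes, of which 10.4% were lower and 8.31% higher. The list had a median log2 difference of -1.63, against 0.037 over all genes. Among the 16, Iigp1 passed the filter through the vehicle libraries alone, so its fall is no support. It was at 0.59, 0.74 and 0.97 FPKM in sulfatide and 10.5, 4.37 and 6.29 FPKM in vehicle. The 16 became 13 without vehicle replicate 2, 14 without vehicle replicate 4 and 15 without sulfatide replicate 1 or vehicle replicate 3. Without any 1 vehicle library 17 genes of the list were tested. In that list Cxcl10, a chemokine, was at 78.8 ± 4.26 FPKM in sulfatide and 1514 ± 628 FPKM in vehicle. Gbp5, a guanylate-binding protein, was at 41.6 ± 7.78 FPKM in sulfatide and 261 ± 50.4 FPKM in vehicle. Socs1, an inhibitor of cytokine signalling, was 3.30-fold lower (log2 difference -1.67 ± 0.12, limma adjusted p = 5.85e-05), and Gbp3 4.16-fold lower. Cxcl9, also a chemokine, went the other way, at 24.0 ± 7.55 FPKM in sulfatide and 2.42 ± 0.0721 FPKM in vehicle (9.9-fold higher, limma adjusted p = 7.69e-05). Nos2 did not pass the test (limma adjusted p = 0.969). Whether Wars fell for the same cause as the genes of the list that fell was not tested. Wars2, the mitochondrial tryptophan enzyme, was at 1.53, 2.00 and 1.45 FPKM in sulfatide and 2.17, 1.94 and 1.96 FPKM in vehicle libraries, where the groups overlapped (limma adjusted p = 0.336).

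Kars, the lysine enzyme of both compartments, fell too. It was at 58.6, 54.0 and 49.8 FPKM in sulfatide replicates 1, 2 and 3, against 70.0, 73.0 and 65.8 FPKM in vehicle replicates 2, 3 and 4. The groups did not overlap. Kars averaged 54.1 ± 4.39 FPKM in sulfatide and 69.6 ± 3.64 FPKM in vehicle (1.29-fold lower, log2 difference -0.36 ± 0.092, limma adjusted p = 0.0284). Leaving out 1 library at a time gave limma adjusted p from 0.0351 to 0.114, and the call was lost without sulfatide replicate 2 (0.0528), sulfatide replicate 3 (0.114) or vehicle replicate 2 (0.106). The annotation holds a processed pseudogene, Kars-ps1, on chromosome X, and how fragments were divided between gene and pseudogene is uncertain.

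Qars, the cytoplasmic glutamine enzyme, was the only member that rose, and the TPM rescaling ended that call (adjusted p = 0.0578). It was at 101, 90.4 and 95.9 FPKM in sulfatide replicates 1, 2 and 3, against 70.4, 79.5 and 73.6 FPKM in vehicle replicates 2, 3 and 4. The lowest sulfatide library lay above the highest vehicle library. Qars averaged 95.7 ± 5.16 FPKM in sulfatide and 74.5 ± 4.63 FPKM in vehicle (1.28-fold higher, log2 difference 0.36 ± 0.087, limma adjusted p = 0.0224). Leaving out 1 library at a time gave limma adjusted p from 0.0132 to 0.106, and the call was lost without sulfatide replicate 1 (0.0884), sulfatide replicate 3 (0.0797), vehicle replicate 2 (0.106) or vehicle replicate 4 (0.0668). Kars (chr8:111993443-112011323, minus strand) and Qars (chr9:108507706-108515941, plus strand) share no exonic base with another gene of the annotation on either strand.

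The other 34 members did not pass the test. On the log2(FPKM + 1) scale, the whole 95% interval of the difference lay within 1.5-fold in either direction for 33 of the 37. Wars, Cars2 and Mars2 were among the exceptions. That scale understates a change for the 8 mitochondrial members under 5 FPKM, so the limit does not carry over to FPKM for them. Of the cytoplasmic members 16 of 20 had a log2 difference below 0, with a median of -0.11 against 0.037 over all genes tested. Among all genes tested 55.3% lay above 0. In 10 of the 20 every sulfatide library lay below every vehicle library, and in 1 (Qars) above. Such separation occurred in 18.3% of all tested genes for lower and 18.6% for higher values. The 10 were Wars, Kars, Iars, Aars, Eprs, Tars, Gars, Lars, Mars1 and Yars.

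Iars, the isoleucine enzyme, came closest to the threshold from below. It was at 27.4, 30.5 and 26.8 FPKM in sulfatide libraries and 37.8, 34.4 and 32.5 FPKM in vehicle libraries, with no overlap (log2 difference -0.30 ± 0.098, limma adjusted p = 0.065). Aars, the alanine enzyme, was at 171, 171 and 161 FPKM in sulfatide and 192, 187 and 196 FPKM in vehicle libraries, again with no overlap (-0.19 ± 0.075, limma adjusted p = 0.104). Of the exonic length of Aars 14.3% is shared with Exosc6 on the same strand, so part of its fragments may belong to that gene. Eprs, Tars, Gars and Lars had differences of -0.19, -0.16, -0.15 and -0.16, and Mars1 and Yars of -0.11 and -0.081. Vars (-0.19), Nars (-0.11), Rars (-0.11), Hars (-0.055), Farsa (-0.053) and Cars (-0.040) lay below 0 with overlapping groups. Dars (0.023), Sars (0.17) and Farsb (0.21) lay above 0, also with overlap. The 2 subunits of the phenylalanine enzyme had 95% intervals that included 0 for both, and the sign of Farsa turned without sulfatide replicate 2 (0.0033) or vehicle replicate 3 (0.0095). Farsb shares 9.47% of its exonic length with Sgpp2 on the opposite strand, and the sources used here do not say whether counting used the strand.

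**Figure D2:**
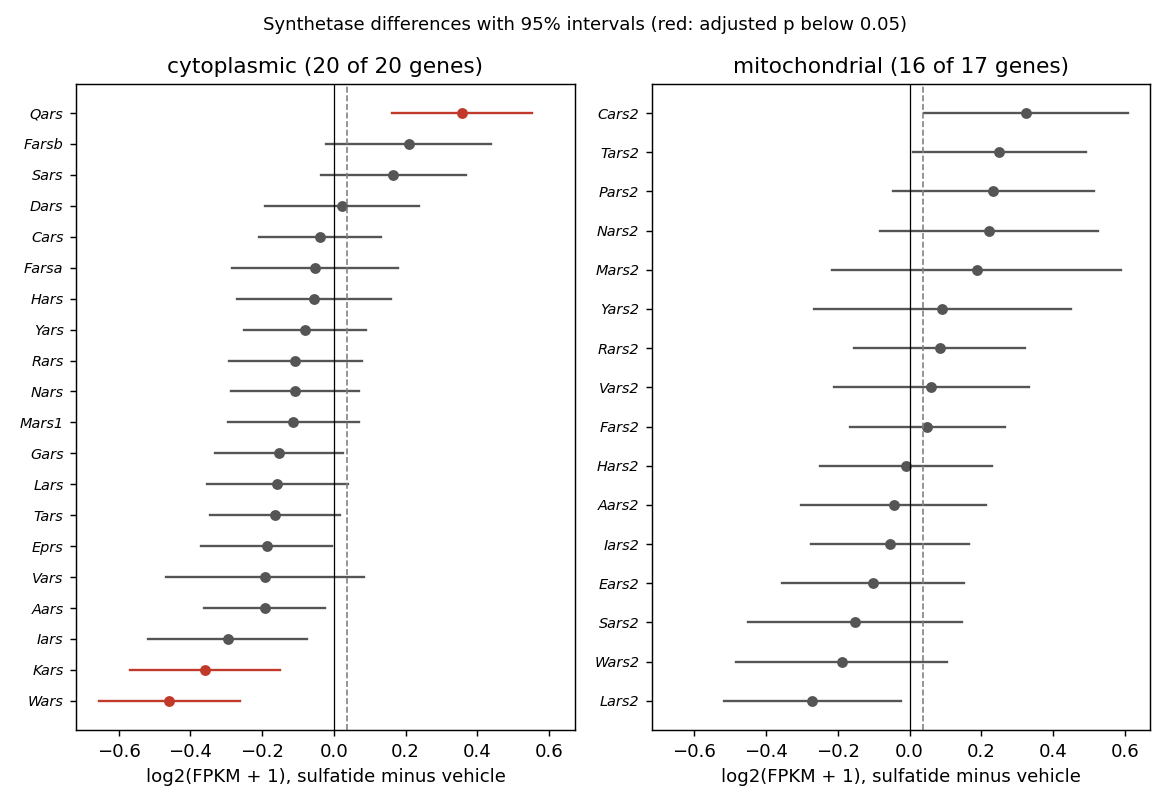
Log2(FPKM + 1), sulfatide minus vehicle, for the synthetases named in the text (points) with its 95% interval (lines), cytoplasmic members at left and mitochondrial members at right. The dashed line is the median of all tested genes (0.037), and red marks Wars, Kars and Qars, which passed the test.

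Members of the multisynthetase complex were on both sides. Of its 8 enzymes Kars fell and Qars rose, 6 had a difference below 0, and the median was -0.13. That is 25.0% called, against 18.7% of all genes. Of the 12 cytoplasmic members outside the complex Wars fell (8.33% called), 10 lay below 0, and the median was -0.095. The complex has 3 scaffold proteins. Aimp2 rose to 55.2 ± 2.03 FPKM in sulfatide, against 41.4 ± 3.56 FPKM in vehicle (1.33-fold, log2 difference 0.41 ± 0.092, limma adjusted p = 0.0163). That call was lost without sulfatide replicate 1 or 3 or vehicle replicate 2 or 4, with adjusted p up to 0.0801. Eef1e1 was at 51.6 ± 4.43 FPKM in sulfatide and 72.9 ± 16.4 FPKM in vehicle (limma adjusted p = 0.0628), and Aimp1 at 88.0 ± 9.73 FPKM in sulfatide and 77.4 ± 10.7 FPKM in vehicle (adjusted p = 0.311). The synthetases also divide into 2 structural classes by the fold of their catalytic domain. The 9 class I cytoplasmic genes had a median difference of -0.11 and the 10 class II genes one of -0.081, against 0.037 over all genes.

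No mitochondrial member passed the test by limma, against 18.7% of all genes, and 4 of 17, Cars2, Lars2 and Tars2 among them, had an unadjusted p below 0.05. Cars2 passed without vehicle replicate 3 (limma adjusted p = 0.0442), and Lars2 after rescaling to TPM (0.0498). Of the 17 members 10 had a log2 difference above 0, near the share of 55.3% over all tested genes, and the median was 0.060. The 10 became 6 under TPM. Cars2, the cysteine enzyme, was at 13.1, 10.8 and 11.2 FPKM in sulfatide and 8.66, 10.5 and 8.25 FPKM in vehicle libraries, without overlap (log2 difference 0.32 ± 0.13, limma adjusted p = 0.103). Tars2, Pars2 and Nars2, for threonine, proline and asparagine, likewise had every sulfatide library above every vehicle library, with differences of 0.25, 0.23 and 0.22. Over all tested genes, 18.6% were separated in this way with sulfatide higher and 18.3% with sulfatide lower. Lars2, the leucine enzyme, was the single mitochondrial member with every sulfatide library below (3.61, 3.57 and 3.76 FPKM in sulfatide against 4.89, 4.33 and 4.62 FPKM in vehicle, -0.27 ± 0.11, limma adjusted p = 0.115). The groups of 11 others overlapped, with differences of 0.19 for Mars2, 0.091 for Yars2, 0.084 for Rars2, 0.060 for Vars2, 0.050 for Fars2, -0.0099 for Hars2, -0.044 for Aars2, -0.055 for Iars2, -0.10 for Ears2, -0.15 for Sars2 and -0.19 for Wars2. Iars2 shares 22.9% of its exonic length with Rab3gap2 on the opposite strand, the largest such share among the members.

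The distance between the compartments was smaller in the sulfatide libraries. The mean log2(FPKM + 1) level over cytoplasmic members minus that over mitochondrial members was 3.46, 3.50 and 3.50 in sulfatide replicates 1, 2 and 3, against 3.63, 3.65 and 3.66 in vehicle replicates 2, 3 and 4. The groups did not overlap, and their means differed by -0.16, where the pooled SD of replicates was 0.020. This is a description, and no test was made of it. A common rescaling of a library cancels almost fully from this quantity, and it was -0.18 under TPM and -0.14 without Gars and Kars. Each part alone varied more between replicates. The cytoplasmic mean was 6.43, 6.36 and 6.33 in sulfatide and 6.45, 6.54 and 6.42 in vehicle libraries, and sulfatide replicate 1 lay above vehicle replicate 4, so that the groups overlapped. The mitochondrial mean was 2.97, 2.86 and 2.83 in sulfatide and 2.82, 2.89 and 2.77 in vehicle libraries, with overlap. The mean difference was -0.098 for cytoplasmic members, and -0.21 under TPM. For mitochondrial members it was 0.060, and -0.032 under TPM, so that its sign depended on the scaling. On the linear scale, the summed FPKM of cytoplasmic members was 13.97 to 14.98 times that of mitochondrial members in the sulfatide libraries and 16 to 16.7 times in the vehicle libraries.

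**Figure D3:**
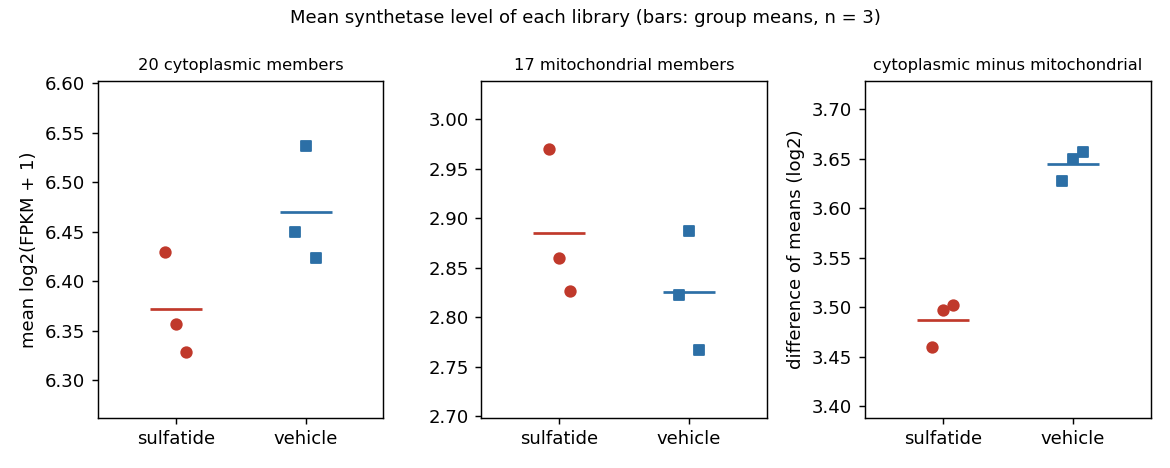
Mean log2(FPKM + 1) of each library over the 20 cytoplasmic members (left), over the 17 mitochondrial members (middle) and the first minus the second (right), with group means as bars and n = 3 libraries in each group. The right panel separates the groups, at 3.46 to 3.50 in sulfatide and 3.63 to 3.66 in vehicle, while the other panels show overlap.

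The same member differences can also be arranged by amino acid. The cytoplasmic and the mitochondrial enzyme of 1 amino acid could be set side by side in 18 pairs, with Eprs and Fars2 each used in 2 of them. In 15 of 18 pairs the log2 difference of the mitochondrial member was above that of the cytoplasmic member. With medians of -0.11 for cytoplasmic and 0.060 for mitochondrial members, many pairs would take this order however they were matched. The count is therefore no evidence beyond the distance between the compartments, and the share over unmatched pairs was not computed. The distance was widest for proline, with 0.23 for Pars2 against -0.19 for Eprs, and for threonine, with 0.25 for Tars2 against -0.16 for Tars. For leucine, serine and the Farsb subunit it ran the other way, most for serine, with -0.15 for Sars2 against 0.17 for Sars. In level, the cytoplasmic member exceeded its mitochondrial partner in each library and each pair, from 1.80-fold (Iars over Iars2, sulfatide replicate 1) to 160.5-fold (Nars over Nars2, vehicle replicate 4).

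**Figure D4:**
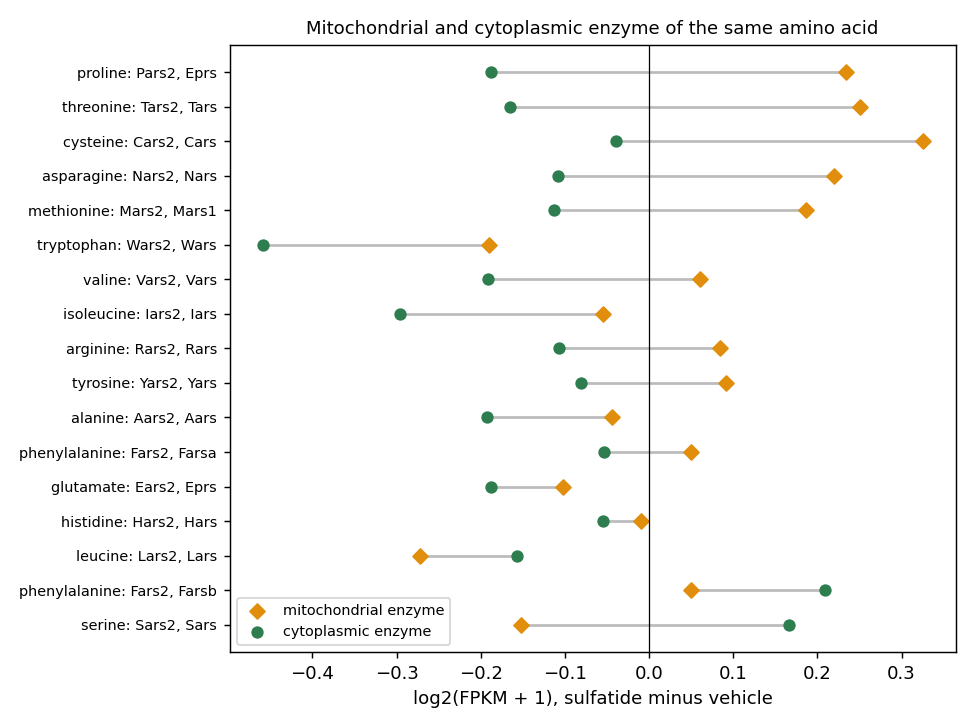
Log2(FPKM + 1), sulfatide minus vehicle, of the mitochondrial enzyme (diamonds) and the cytoplasmic enzyme (circles) of the same amino acid, ordered by the distance between them, with 1 of the 18 pairs not shown. The diamond lies to the right except for leucine, serine and the Farsb pair for phenylalanine.

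Cytoplasmic synthetases known as Atf4 targets were taken as a list of 11 (Aars, Cars, Eprs, Gars, Iars, Mars1, Nars, Sars, Tars, Wars and Yars). Of these 10 had a log2 difference below 0, 8 without overlap, 1 fell (Wars, 9.09%), and the median was -0.15. Over all genes 18.3% lay lower without overlap and 10.4% were called lower. The 9 other cytoplasmic members had 6 below 0, 2 of them without overlap, and a median of -0.055. Atf4 binds the amino acid response element, whose core TGATGNAA was searched on both strands from 250 bases before to 50 bases after the start site. RefSeq promoter windows (GRCm38.p6) matched 27 members, 13 cytoplasmic and 14 mitochondrial. The core occurred in 5 of the 27 members (18.5%), which had 28 windows, and in 3.97% of all 32851 windows. All 5 were cytoplasmic members, all on the Atf4 list, with differences of -0.30 to -0.081. The 8 cytoplasmic members with a window and no core had differences of -0.36 to 0.36, 4 of them below 0. Cytoplasmic members without a window, Wars among them, could not be searched and are in neither group. A link between the core and the difference was not tested. None of the 5 passed the test (limma adjusted p = 0.065 for Iars, 0.104 for Aars, 0.185 for Tars, 0.211 for Gars and 0.481 for Yars), and 16 of all 20 cytoplasmic members lay below 0. The stretches around the core are shown because it was the searched motif held by the most members. They run 5′ to 3′ on the gene's strand, and capitals mark the core, read as TGATGNAA or as its reverse complement TTNCATCA.
Aars, 112 bases before the start (chr8:111033690-111033749, plus strand): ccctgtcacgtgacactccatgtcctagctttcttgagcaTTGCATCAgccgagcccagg
Aars, 9 bases after the start (chr8:111033811-111033870, plus strand): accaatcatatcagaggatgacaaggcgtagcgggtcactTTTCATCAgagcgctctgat
Gars, 30 bases before the start (chr6:55037931-55037990, plus strand): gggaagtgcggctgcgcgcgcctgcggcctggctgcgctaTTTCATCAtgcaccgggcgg
Iars, 7 bases after the start (chr13:49682097-49682156, plus strand): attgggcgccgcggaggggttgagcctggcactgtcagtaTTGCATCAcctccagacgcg
Tars, 15 bases before the start (chr15:11399654-11399713, minus strand): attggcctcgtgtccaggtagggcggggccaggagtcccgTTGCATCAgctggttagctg
Yars, 3 bases after the start (chr4:129189866-129189925, plus strand): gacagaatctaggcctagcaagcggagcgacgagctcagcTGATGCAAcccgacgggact

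The cores of Aars (first match), Iars and Tars read TTGCATCA, and that of Yars is its reverse complement, TGATGCAA. A match is a string of letters and does not show a site in use. Of the 3 members called, windows were at hand for Kars and Qars, and neither holds this core. The core of the interferon gamma activated site, TTCNNNGAA, which reads the same on both strands, occurred in Kars, Aars and Nars2, 11.1% of the 27 against 8.3% of all windows. The core of the interferon stimulated response element, GAAA and GAAA with any 2 bases between, searched on both strands, occurred only in Qars among the 27 (3.7%, against 3.44% of all windows). The Kars and Qars stretches were picked for a measured outcome, since both genes passed the test. Those of Aars and Nars2 with the activated site core are not shown. A link between the matches and the direction of either gene was not tested. Capitals mark the match.
Kars, 9 bases before the start (chr8:112011343-112011403, minus strand): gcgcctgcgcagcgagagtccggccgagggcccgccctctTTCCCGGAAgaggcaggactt
Qars, 199 bases before the start (chr9:108507766-108507827, plus strand): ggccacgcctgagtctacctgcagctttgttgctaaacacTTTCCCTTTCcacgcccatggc

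Other genes of the amino acid response were lower in more cases than higher. Of 29 tested members of that list 8 fell and 1 rose, 31.0% called against 18.7% of all genes, with a median log2 difference of -0.21. The 8 became 3 without sulfatide replicate 1, 2 without sulfatide replicate 3, and 3 without vehicle replicate 2 or vehicle replicate 4, and the rise was lost without vehicle replicate 2. Atf4 itself was at 594 ± 32.2 FPKM in sulfatide and 599 ± 19.9 FPKM in vehicle (-0.013 ± 0.079, limma adjusted p = 0.923). Asns, the asparagine synthetase that Atf4 is known to induce, was at 267 ± 7.58 FPKM in sulfatide and 282 ± 18.1 FPKM in vehicle (limma adjusted p = 0.536). Ddit3, a transcription factor of the stress response (42.5 ± 8.34 FPKM in sulfatide and 48.9 ± 6.57 FPKM in vehicle), and the pseudokinase gene Trib3 (37.1 ± 5.36 FPKM in sulfatide and 43.9 ± 2.69 FPKM in vehicle) did not pass either, with limma adjusted p of 0.369 and 0.183. Ddit3 overlaps Mars1 on the opposite strand over 1.99% of the exonic length of Mars1. Atf3 fell to 195 ± 17.6 FPKM in sulfatide, against 311 ± 26.7 FPKM in vehicle (limma adjusted p = 0.00186). The amino acid carrier gene Slc1a4 and Cebpb, a transcription factor, fell 1.73-fold and 1.44-fold. The Slc1a4 call was lost without vehicle replicate 2 (limma adjusted p = 0.0617), and the Cebpb call without sulfatide replicate 1 or 3 (up to 0.0588). Ddit4, an inhibitor of mTORC1 signalling, rose 1.70-fold, to 38.7 ± 5.86 FPKM in sulfatide, against 22.8 ± 4.88 FPKM in vehicle (limma adjusted p = 0.0125, and 0.0639 without vehicle replicate 2).

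Relatives and partners of the synthetases had a median difference of 0.18 over 13 tested genes, of which 1 rose and none fell (7.69%, against 18.7% of all genes). Under TPM 1 rose and 1 fell and the median was 0.086, and without sulfatide replicate 1 the median was 0.080. The count of rises was 3 without sulfatide replicate 2 and 2 without vehicle replicate 3. Prorsd1, related to a bacterial enzyme that removes wrongly attached amino acids from proline transfer RNA, rose to 89.2 ± 3.88 FPKM in sulfatide, against 55.3 ± 5.64 FPKM in vehicle (1.61-fold, log2 difference 0.68 ± 0.097, limma adjusted p = 0.00155). Qrsl1, Gatb and Gatc encode the amidotransferase that completes glutamine transfer RNA in mitochondria. Their log2 differences were 0.25, 0.016 and 0.21, and none passed (limma adjusted p = 0.200, 0.940 and 0.166). Pstk, which phosphorylates serine on selenocysteine transfer RNA, was at 11.04 ± 1.81 FPKM in sulfatide and 7.98 ± 1.48 FPKM in vehicle (limma adjusted p = 0.0913). Mtfmt, which formylates the mitochondrial initiator transfer RNA, was at 17.5 ± 3.26 FPKM in sulfatide and 13.6 ± 0.987 FPKM in vehicle (0.142). Gcn1, which relays uncharged transfer RNA on the ribosome to the kinase encoded by Eif2ak4, was at 5.27 ± 0.227 FPKM in sulfatide and 6.63 ± 0.658 FPKM in vehicle (0.119).

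Of 67 tested genes whose symbol begins with Eif or Eef, kinases and methyltransferases of the factors and Eef1e1 included, 24 had a difference below 0 and the median was 0.086, which became 36 and -0.022 under TPM. Of the 20 cytoplasmic synthetases 16 lay below 0, and 17 under TPM. In that set 2 rose and 3 fell (7.46%, against 18.7% of all genes), and under TPM none rose and 4 fell. No rise was called without sulfatide replicate 1 or 3 or vehicle replicate 2 or 4, 5 were without vehicle replicate 3, and the falls numbered 2 or 3 without any 1 library. Of those that fell, Eif6 was lost whichever library was left out. Eif2ak2, an interferon-induced kinase, was 2.09-fold lower and the cap-binding relative Eif4e3 1.76-fold lower. Of 78 mitochondrial ribosomal protein genes 9 rose and none fell (11.5%, against 18.7% of all genes called and 8.31% higher), with a median of 0.18 and 63 above 0, and under TPM 6 rose with a median of 0.067. The 9 became 4 without sulfatide replicate 1, 5 without sulfatide replicate 3, 3 without vehicle replicate 2 or vehicle replicate 4, and 28 without vehicle replicate 3. Mrpl41 (1.67-fold), Mrpl52 (1.48-fold), Mrpl57 (1.38-fold) and Mrpl51 (1.44-fold) had the smallest p of these, and Mrpl51 was lost without vehicle replicate 2 or 4 (limma adjusted p up to 0.0738). Of 10 mitochondrial translation factors none passed by limma, with 9 above 0 and a median of 0.19, and 2 (Mrrf and Tsfm) had an unadjusted p below 0.05, while 2 passed without vehicle replicate 3. The 17 mitochondrial synthetases, with a median of 0.060, had 10 above 0. Among all tested genes 55.3% lay above 0. No test was made between the lists.

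**Figure D5:**
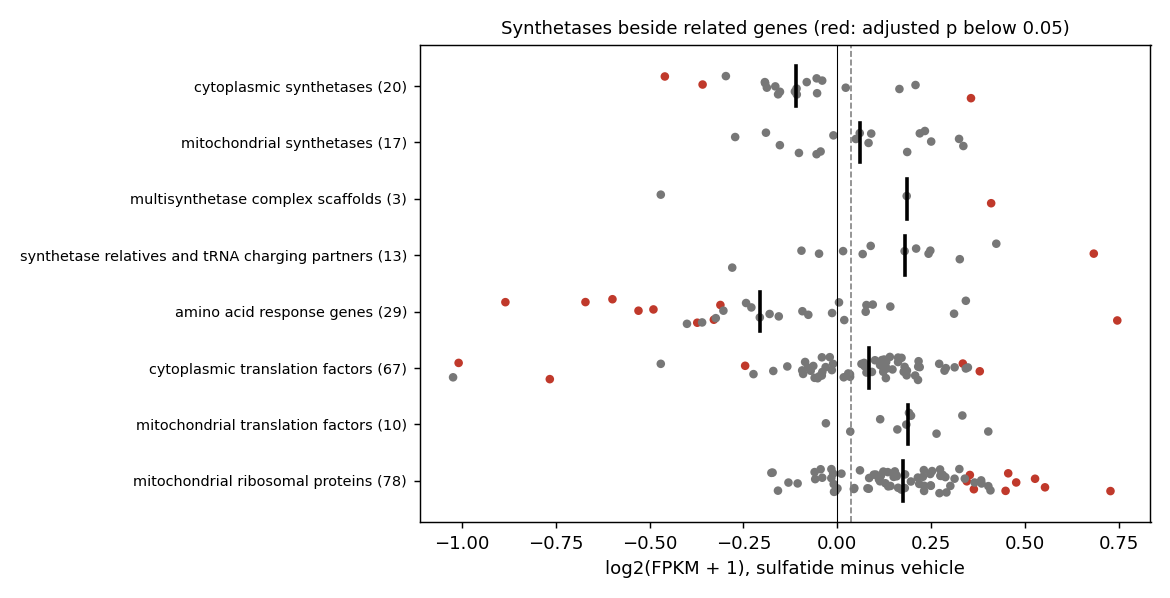
Log2(FPKM + 1), sulfatide minus vehicle, of each tested gene (points, red where it passed the test) by list, with the number tested in parentheses, the list's median as a black bar and the median of all genes (0.037) as a dashed line. Medians lie below 0 for cytoplasmic synthetases (-0.11) and amino acid response genes (-0.21) with FPKM as deposited.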

How the data were processed

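RNA of cells in lavage fluid (3 sulfatide and 3 vehicle libraries) was selected by poly(A), and strand-marked libraries were sequenced in pairs, per the labels' protocols. Per the submitters' processing notes the build was mm10. The aligner, the counter and the annotation are not given in sources used here. The authors deposited 1 table of FPKM values, rounded to 2 decimals. Its 3 other value columns matched no sample and were not used. FPKM are not counts, so no count model was used.

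Values were analysed as log2(FPKM + 1) for the 10405 genes at 1 FPKM or more in at least 3 libraries, with limma 3.58.1 in R 4.3.3 (eBayes with an intensity trend, 2-sided, Benjamini-Hochberg over all genes tested, called below 0.05). The fit was tested on simulated data. Alternatives were other pseudocounts, filters and scalings, the replicate number as a block, and leaving out each library in turn. Running the lists of related genes under TPM and without each library was added after seeing the data. Fold is the ratio of group means. With 3 libraries a group, the smallest 2-sided p of an exact permutation test is 0.1, so none was used.

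The members, lists and motifs were chosen with earlier results of these data known. All members are named but 1, whose values are not reported here and which counts and means include. Of other lists, up to 4 genes with the smallest p are named, with Atf4, Ddit3, Asns and Trib3 whatever their result. Cxcl9, Iigp1, Nos2, Aimp1, Qrsl1, Gatb, Gatc, Mtfmt, Tsfm, Eif6, Pdgfrb and other cell type marker genes are named beside them, some after their values were seen. Gene positions came from GENCODE M21 and promoter windows from RefSeq, both on GRCm38. The intended comparison of protein sequences was not run.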

Additional observations from a re-analysis of the deposited data

How the results depend on the processing

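Absolute depth is unknown, and the scale understates changes of the 8 mitochondrial members under 5 FPKM. Over all genes, 865 were called higher and 1078 lower. Without a filter 522 were higher, and under TPM 467. With the replicate block 297 were higher and 635 lower, and leaving out each library gave 263 (vehicle replicate 2) to 1420 (vehicle replicate 3) higher and 603 to 1136 lower. Synthetases called higher and lower were 1 and 2. They became 0 and 9 under TPM, 2 and 2 with quantile normalization, 0 and 1 with the block, and 0 to 2 and 1 to 2 on leaving out a library. Only Wars was called under all 13 alternatives (adjusted p 0.00154 to 0.0489). With the block, limma adjusted p was 0.0489 for Wars, 0.0554 for Kars and 0.135 for Qars. Only numbers 2 and 3 occur in both groups, and deviations of same-numbered libraries correlated at 0.156 and -0.303, so they were not treated as pairs.

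The mean difference of cytoplasmic members was -0.208 under TPM, that of mitochondrial members -0.0315 under TPM and -0.012 with the block, and the distance between compartments was -0.2 at a filter of 5 FPKM, which leaves 29 members, and -0.144 to -0.166 on leaving out a library. Signs turned only for members that had not passed. Under TPM these were Dars (-0.087), Rars2 (-0.0215), Fars2 (-0.0536), Yars2 (-0.013) and Vars2 (-0.024), and with the block Mars2 (-0.0849), Dars (-0.0734), Rars2 (-0.0135) and Yars2 (-0.131). Leaving out each library gave -0.0349 to 0.0939 for Dars, -0.123 to 0.00949 for Farsa, -0.0513 to 0.24 for Yars2, -0.0948 to 0.0237 for Hars and -0.0696 to 0.0522 for Hars2. Of the values for single members, 437 kept direction and side of the threshold, 17 turned, 9 newly passed and 10 no longer passed. Except where stated, causes were not tested.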

Other observations

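Several synthetase genes share a divergent promoter region with a neighbour, the start sites lying within 1000 bases on opposite strands. Kars starts 75 bases from Terf2ip, a telomere protein gene, which was at 11.5 ± 0.922 FPKM in sulfatide and 10.9 ± 1.21 FPKM in vehicle libraries (SD, n = 3 each, limma adjusted p = 0.669), whereas Kars fell. Wdr25, 543 bases from Wars, was at 1.39 ± 0.251 FPKM in sulfatide and 1.73 ± 0.375 FPKM in vehicle libraries (limma adjusted p = 0.406). Mrps12, a mitochondrial ribosomal protein gene 172 bases from Sars2, had a log2 difference of 0.23 against -0.15 for Sars2, and neither passed.

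Among 9 genes of transfer RNA end processing and export 1 rose and none fell (11.1%, against 18.7% of all genes). Hsd17b10, a subunit of the mitochondrial enzyme that trims the 5′ end of transfer RNA, was at 95.6 ± 4.49 FPKM in sulfatide and 62.1 ± 8.72 FPKM in vehicle libraries (1.54-fold, limma adjusted p = 0.00561).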
